A study of Mus musculus with 8 samples.

Results

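T cell cytokines and chemokines are described here as a group of 10 genes, taken by symbol from the deposited table of 22609 genes: Ccl3, Ccl4, Ccl5, Xcl1, Ifng, Il2, Tnf, Ltb, Fasl and Tgfb1. All 10 were found. Their transcripts were read in naive CD8 T cells, the precursors of killer T cells that have not met their antigen, isolated directly from splenocytes of C57BL/6 mice aged 3 months. There were 4 Brca1 heterozygous (Het) libraries, 31, 53, 56 and 139, and 4 Brca1 wild type (WT) libraries, 45, 54, 57 and 65, named by the number in their titles. The labels do not describe the Brca1 allele, the marker used for isolation, sex, litter or batch, nor do they say that each library is a separate mouse, so the spread between libraries may in part be technical.

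Cytokines are secreted or membrane-bound proteins by which T cells instruct other cells, and chemokines are the cytokines that attract cells along a gradient. CCL3, CCL4 and CCL5 attract T cells, monocytes and macrophages, and XCL1 attracts the dendritic cells that carry XCR1. Interferon gamma arms macrophages and raises antigen presentation, and interleukin 2 drives division of activated T cells. TNF and FAS ligand are members of 1 protein family and can trigger death or inflammation in the cells that bear their receptors, while lymphotoxin beta, of the same family, acts in lymphoid organ structure. TGF-beta 1 restrains T cells and is made as a latent precursor. Naive T cells are known to hold little interferon gamma or interleukin 2 message until they are activated, whereas memory T cells and natural killer (NK) cells keep Ccl5, Xcl1 and Ifng transcripts ready.

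The DNA just before the start site of a gene holds sites for the factors that switch it on in activated T cells. The 250 bases before the start were at hand in RefSeq for 8 of the 10 genes (build GRCm38.p6), with Ccl4 and Ccl5 the missing entries. Shown are the 4 genes with the widest spread between libraries among these 8, and Tnf, an activation gene that hardly varied here. Capitals mark matches to any of 5 motifs, searched on both strands. GGAAA is the core of the site bound by the activation factor NFAT. The AP-1 factors, its partners, bind the motif TGANTCA. T-box factors such as T-bet bind sites with the core GTGTGA. The last motifs were the TATA box, TATAAA, which positions the polymerase, and the kappaB consensus bound by NF-kappaB. A match on the other strand shows in the printed strand as the reverse complement, so that TTTCC is also a match to the NFAT core.
Ifng, chr10:118440796-118441045, plus strand: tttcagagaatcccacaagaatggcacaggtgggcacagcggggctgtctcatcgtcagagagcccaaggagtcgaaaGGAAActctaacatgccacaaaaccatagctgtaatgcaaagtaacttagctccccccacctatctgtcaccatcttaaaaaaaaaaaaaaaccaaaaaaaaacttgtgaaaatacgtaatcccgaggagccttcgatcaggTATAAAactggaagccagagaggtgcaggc
Xcl1, chr1:164935523-164935772, minus strand: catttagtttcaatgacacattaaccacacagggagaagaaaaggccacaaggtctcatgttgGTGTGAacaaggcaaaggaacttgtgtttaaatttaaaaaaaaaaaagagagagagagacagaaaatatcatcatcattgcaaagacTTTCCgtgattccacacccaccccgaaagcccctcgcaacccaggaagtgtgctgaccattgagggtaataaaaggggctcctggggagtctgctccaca
Fasl, chr1:161788496-161788745, minus strand: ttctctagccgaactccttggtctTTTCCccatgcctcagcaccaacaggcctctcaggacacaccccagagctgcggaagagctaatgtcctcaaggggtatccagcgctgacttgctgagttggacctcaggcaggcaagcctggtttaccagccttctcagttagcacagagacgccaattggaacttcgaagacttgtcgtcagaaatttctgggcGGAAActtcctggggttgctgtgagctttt
Ccl3, chr11:83649379-83649628, minus strand: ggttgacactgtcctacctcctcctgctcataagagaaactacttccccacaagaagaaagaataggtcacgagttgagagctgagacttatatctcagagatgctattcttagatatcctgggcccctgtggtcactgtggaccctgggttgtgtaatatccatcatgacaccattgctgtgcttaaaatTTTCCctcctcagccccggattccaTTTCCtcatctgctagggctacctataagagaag
Tnf, chr17:35202008-35202257, minus strand: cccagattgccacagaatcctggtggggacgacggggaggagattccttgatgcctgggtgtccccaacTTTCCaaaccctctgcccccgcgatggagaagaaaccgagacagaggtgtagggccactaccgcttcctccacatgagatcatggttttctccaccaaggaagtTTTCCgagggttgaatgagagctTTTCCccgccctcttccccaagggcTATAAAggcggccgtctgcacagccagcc
GGAAA was found in 7 of the 8 windows, against 55.6% of all 32851 RefSeq windows of the same length, and was missing from that of Tgfb1. TATAAA was found in 3, those of Ifng, Il2 and Tnf, against 12.4% of all windows. GTGTGA was found only in the window of Xcl1 among the 8 (12.3% of all windows), and the kappaB consensus only in that of Ltb (3.9% of all windows), where it overlapped a GGAAA match. TGANTCA was in 0 of the 8 windows, against 6.75% of all. These matches describe letters and do not show that a factor binds.

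The deposited values were normalized read counts whose higher values shared 1 distribution (each of 9513 ranks with a mean of at least 100 differed by at most 2% from its mean), and totals lay between 27488636.8 and 27489670.0 in every library and do not show depth. Genes above 0 numbered 13863 to 14656 in Het and 15358 to 15569 in WT libraries. The lowest value above 0 was 0.9 to 1.9 in Het and 0.2 to 0.3 in WT libraries. Reads behind a value were estimated by counting how many distinct values the library holds up to it, and up to 100 this count was 74 to 121 in Het and 106 to 128 in WT libraries, lowest in Het 56. The CD8 coreceptor gene Cd8a was at 45657.9 to 50265.2 in Het and 40591.0 to 46876.7 in WT libraries, and the mean log2 level of the naive T cell marker list was 14.78 in both genotypes.

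Levels of the 10 genes spanned a wide range. Per kilobase of exonic length in the GENCODE annotation, and over all 8 libraries, Ltb averaged 15400 ± 2450 (SD, n = 8) and stood above every other gene of the group in each library. Ccl5 averaged 1650 ± 993 and Tgfb1 964 ± 138 normalized reads per kilobase, with Ccl5 the higher in 6 of the 8 libraries, so their ranges overlapped. Xcl1 (212 ± 101), Ccl3 (204 ± 120), Tnf (117 ± 16.8) and Ccl4 (112 ± 85.3) followed per kilobase, each overlapping its neighbour in the order. Ifng (47.1 ± 31.2) and Fasl (32.8 ± 18.1) came next and overlapped too, and Il2 was last at 0.262 ± 0.642. By mean value, not per length, Ltb ranked 104th of the 22609 genes, Tgfb1 1335th and Ccl5 4120th.

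The comparison of Het with WT libraries asked which of these messages differ in naive CD8 T cells of Brca1 heterozygous mice. None of the 9 genes with a mean of at least 10 passed limma's test, which was run on log2(value + 1) across 12048 genes with a Benjamini-Hochberg adjusted p under 0.05 as threshold. Over all tested genes 0.515% were called, all of them lower in Het. Before adjustment, 1 gene of the 9, Xcl1, was under 0.05, against 8.19% of all tested genes. The genotypes overlapped in all 9 genes, where 5.0% of all tested genes had none. Values in Het were higher for 7 of the 9 and lower for 2, Tnf and Tgfb1, with a median log2 difference of 0.60 beside 0.01 over all tested genes, of which 52% were higher in Het.

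**Figure D1:**
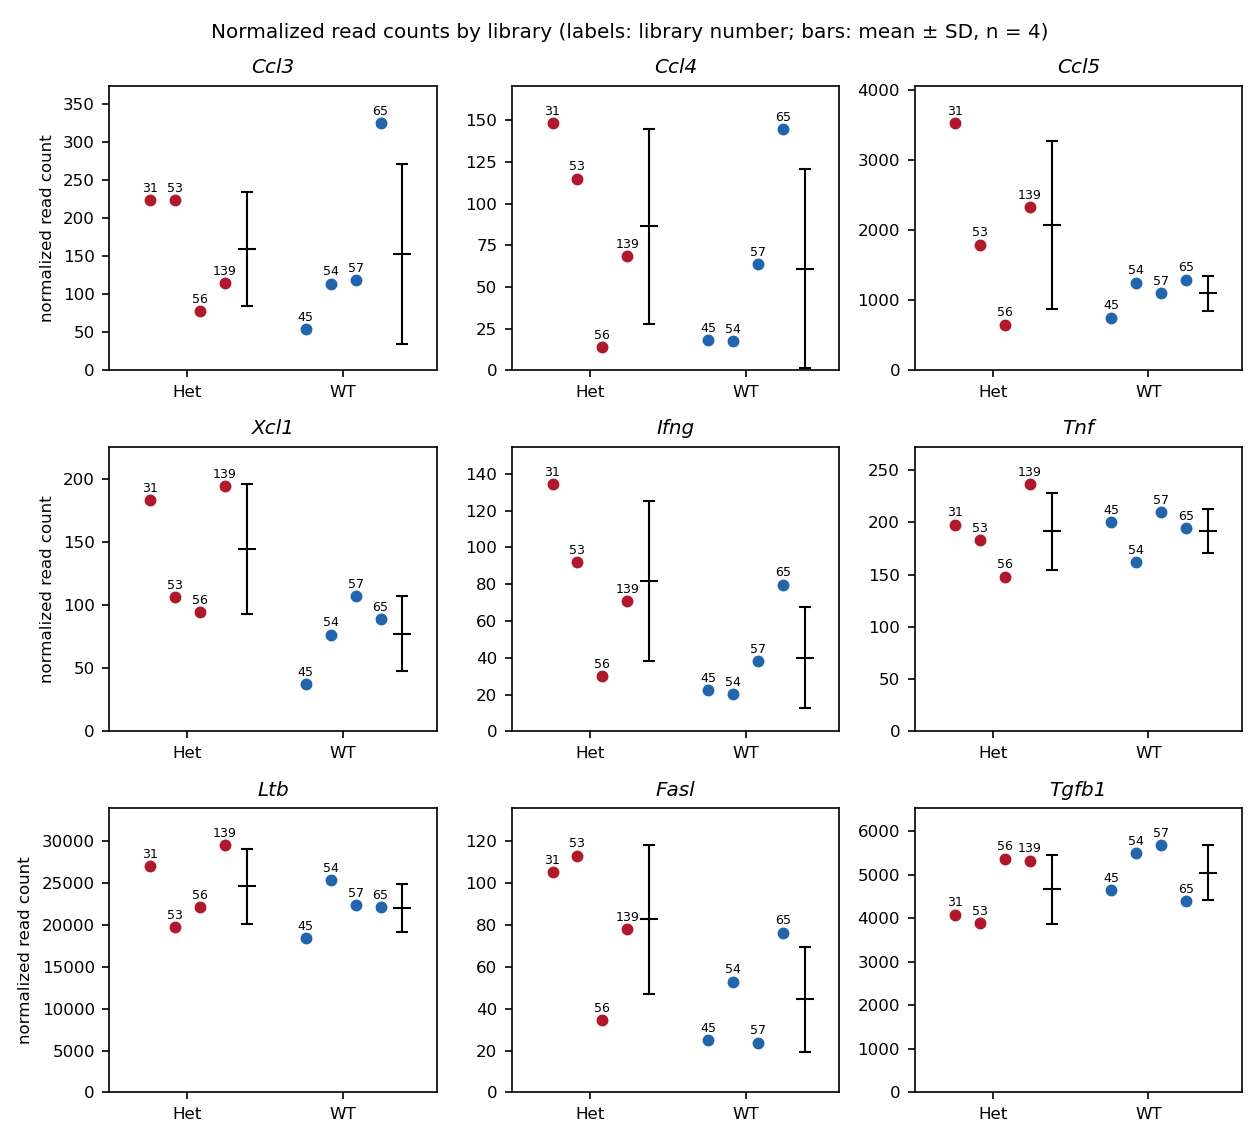
Normalized read counts of the 9 tested genes in each library, with Het (red) left of WT (blue), the library number above each point and the mean ± SD beside each group (n = 4). The groups overlap in every panel; Het 31 is the highest library for Ccl4, Ccl5 and Ifng, WT 65 for Ccl3, and Tnf stays between 148.1 and 236.7.

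Among the chemokines, Ccl5 was the most abundant. Its normalized read counts were 3525.6, 1793.1, 652.1 and 2330.8 in Het 31, 53, 56 and 139, and 750.1, 1252.4, 1097.8 and 1293.0 in WT 45, 54, 57 and 65. Het 31, 53 and 139 were above every WT library, while Het 56 was below all of them. The means were 2075 ± 1194 in Het and 1098 ± 247 in WT (SD, n = 4 each), and Het minus WT came to 0.71 in log2 units (interval -0.22 to 1.64 at 95%, SE 0.42). Neither limma (adjusted p = 0.663) nor the exact permutation test (p = 0.257) called it.

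Xcl1, the lymphotactin gene, was at 183.0, 106.4, 94.6 and 194.3 in Het 31, 53, 56 and 139, and at 37.2, 76.6, 107.0 and 88.8 in WT 45, 54, 57 and 65. The Het libraries all lay above the WT median of 82.7, and Het 53 and Het 56 lay within the WT range. Het minus WT, 0.92 in log2 units (interval 0.11 to 1.73 at 95%, SE 0.37), had the smallest unadjusted p of the group, 0.0301, and did not pass after adjustment (0.549 by limma, with an exact permutation p of 0.0857). The annotated gene Gm20743 overlaps Xcl1 on the opposite strand, and the strand setting of the counting is not given in the sources used here.

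Ccl3 and Ccl4, neighbouring chemokine genes on chromosome 11 that T cells, NK cells and macrophages make when stimulated, differed several-fold between libraries of the same genotype. Ccl3 was at 222.9, 223.1, 77.5 and 114.6 in Het 31, 53, 56 and 139, and at 54.0, 113.8, 118.0 and 324.4 in WT 45, 54, 57 and 65. Both the highest and the lowest library were WT. Het minus WT was 0.22 in log2 units (interval -0.91 to 1.36 at 95%, SE 0.51), with an adjusted p of 0.910 by limma and an exact permutation p of 0.829.

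Ccl4 was at 148.2, 115.0, 13.8 and 68.4 in Het 31, 53, 56 and 139, and at 18.3, 17.7, 63.6 and 144.4 in WT 45, 54, 57 and 65. Each genotype held low and high libraries, and the span between Het 31 and Het 56 was 10.7-fold. The estimate of the reads behind these values was 11 in Het 56 and 31 in WT 45, so the low values carry a counting error as well. Ccl4 had a log2 difference of 0.60 with the widest interval of the group, -1.21 to 2.40 (SE 0.82), and an adjusted p of 0.838 by limma and an exact permutation p of 0.657.

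Of the cytokines proper, Ifng had the largest difference of the group. It was at 134.4, 92.1, 30.1 and 70.7 in Het 31, 53, 56 and 139, and at 22.5, 20.1, 38.1 and 79.8 in WT 45, 54, 57 and 65. Het 31 and Het 53 were above every WT library, and WT 65 was above Het 56 and Het 139. The means of 81.8 ± 43.5 in Het and 40.1 ± 27.6 in WT (SD, n = 4 each) put Het minus WT at 1.04 in log2 units (interval -0.14 to 2.22 at 95%, SE 0.54), which did not pass (0.652 by limma after adjustment, exact permutation p = 0.171). The low WT values stood for less per estimated read than higher values of the same library. In WT 45, Ifng was at 22.5 for 36 estimated reads and Tnf at 200.5 for 192. In WT 54, Ifng was at 20.1 for 38 and Tnf at 162.2 for 184. In Het 56 the 2 genes were near each other per read, at 30.1 for 23 and 148.1 for 109. The part of this in the difference of Ifng was not tested. The annotated gene Gm49751 overlaps Ifng on the same strand.

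Il2 was close to absent from the table and was not tested. It was listed at 0 in Het 31, 56 and 139 and in WT 45, 54 and 65, at 2.1 in Het 53 and at 0.3 in WT 57. Those values stood for an estimated 2 reads in Het 53 and 1 read in WT 57, so a difference was not detectable at this depth.

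The TNF family held both the most abundant message of the group, Ltb, and one that hardly varied, Tnf. Tnf was at 198.0, 183.2, 148.1 and 236.7 in Het 31, 53, 56 and 139, and at 200.5, 162.2, 209.8 and 194.5 in WT 45, 54, 57 and 65. The means were 192 ± 36.7 in Het and 192 ± 20.7 in WT (SD, n = 4 each), and Het minus WT was -0.02 in log2 units (interval -0.44 to 0.41 at 95%, SE 0.19). The adjusted p was 0.983 by limma and the exact permutation p 0.971. Tnf is like Ifng and Ccl4 an activation gene, yet its highest library was only 1.6 times its lowest, against 6.69 and 10.7 times for Ifng and Ccl4.

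Ltb, which resting lymphocytes express, was at 26988.3, 19747.2, 22144.1 and 29541.1 in Het 31, 53, 56 and 139, and at 18405.6, 25354.7, 22362.9 and 22144.1 in WT 45, 54, 57 and 65. Het 31 and Het 139 were the highest libraries, and the other 2 Het libraries lay within the WT range. Het minus WT was 0.15 in log2 units (interval -0.18 to 0.47 at 95%, SE 0.15), with an adjusted p of 0.780 by limma and an exact permutation p of 0.400.

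Fasl, the death ligand that killer cells use beside granzymes, was at 105.1, 113.0, 34.4 and 77.8 in Het 31, 53, 56 and 139, and at 24.8, 52.8, 23.8 and 76.2 in WT 45, 54, 57 and 65. Het 31, 53 and 139 were above every WT library, Het 139 by a small margin over WT 65, and Het 56 was below WT 54 and WT 65. The means were 82.6 ± 35.5 in Het and 44.4 ± 25.1 in WT (SD, n = 4 each), which put Het minus WT at 0.92 in log2 units (interval -0.15 to 1.98 at 95%, SE 0.48). It did not pass by limma (adjusted p = 0.653) or by the exact permutation test (p = 0.171).

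Tgfb1 was at 4085.2, 3886.2, 5368.8 and 5326.1 in Het 31, 53, 56 and 139, and at 4643.4, 5492.9, 5679.4 and 4389.8 in WT 45, 54, 57 and 65. Het 31 and Het 53, which were high in Ifng and Ccl4, were the lowest 2 libraries for Tgfb1. Het minus WT was -0.12 in log2 units (interval -0.42 to 0.17 at 95%, SE 0.13), with an adjusted p of 0.805 by limma and an exact permutation p of 0.457. For Tnf, Ltb and Tgfb1 the 95% interval left out a 2-fold difference in either direction, whereas for the other 6 tested genes it reached 2-fold on at least 1 side.

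**Figure D2:**
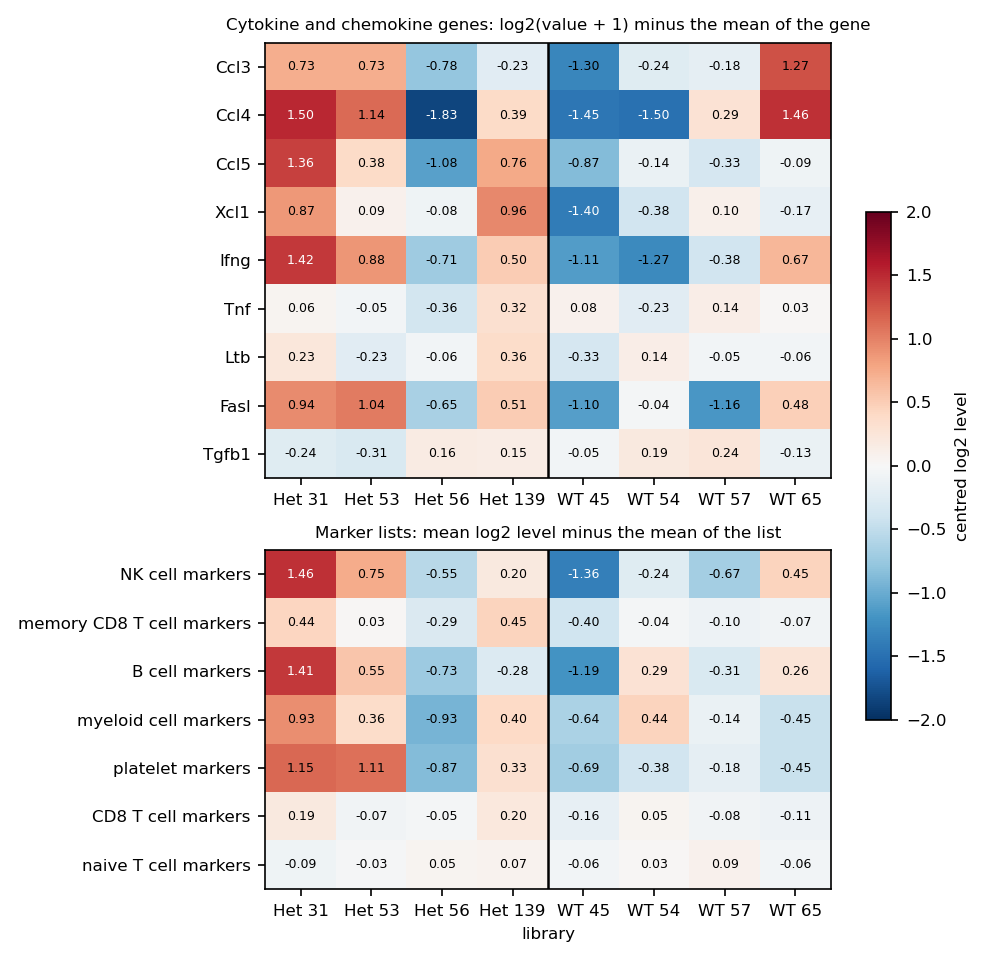
Centred log2 levels in the 8 libraries (Het left of the black line, WT right) of the 9 tested genes (upper panel) and of 7 marker lists (lower panel), each row minus its own mean; red is above and blue below that mean. Het 31 is high and Het 56 and WT 45 are low in Ccl4, Ccl5 and Ifng and in the NK, B cell and platelet lists, while Tnf, Ltb, Tgfb1 and the CD8 and naive T cell lists stay within 0.4 of their mean.

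Across libraries, 6 of the genes moved over a wide range and 3 over a narrow one. The highest library was 4.75 to 10.7 times the lowest for Ccl3, Ccl4, Ccl5, Xcl1, Ifng and Fasl, and 1.46 to 1.61 times for Tnf, Ltb and Tgfb1. Het 31 and Het 139 were above the gene's own mean in 8 of the 9 tested genes each, Het 53 in 6 and Het 56 in 1. In WT 65, 57, 54 and 45 the numbers were 5, 4, 2 and 1. Het 56 had the lowest Het value for each of the 6 wide-ranging genes. The most alike pair among these 6, by the mean absolute difference of their centred log2 values over the 8 libraries, was Ifng with Fasl (0.365), followed by Ccl5 with Xcl1 (0.405) and Ccl5 with Ifng (0.42).

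Markers of other cells also differed between libraries. Het 31, Het 53, WT 65 and Het 139 had the highest mean log2 levels of the NK list, in that order, and the highest Ifng values in the same order. These libraries also led Ccl4, Ccl5 and Fasl, in other orders. In Ccl3 WT 57 was above Het 139, and in Xcl1 WT 57 was above Het 53. Het 139, the highest library for Xcl1, had a mean log2 level of the NK list of 5.84, below the 6.09 of WT 65. All 6 tested NK cell markers were higher in Het, with a summed level of 548.8 to 2694.1 in Het and 345.5 to 1049.1 in WT libraries, and Klra4 of that list was at 0 in every library. Het 31 had the highest and WT 45 the lowest mean log2 level of the NK list (7.10 and 4.28), and Het 56 the lowest among Het libraries (5.09). The defining NK receptor gene Ncr1 was at 103.3 to 532.6 in Het and 74.8 to 180.2 in WT libraries. All 6 memory CD8 markers were higher in Het, with sums of 8263.0 to 15611.2 in Het and 8426.1 to 10090.6 in WT libraries. The highest of these sums was that of Het 139 and came mostly from 1 gene of the list, Ly6c2, which was at 2550.2, 1747.4, 2800.7 and 8720.9 in Het 31, 53, 56 and 139, and at 3155.8, 3316.0, 3581.9 and 2553.5 in WT 45, 54, 57 and 65. Het 31, 53 and 56 were below WT 45, 54 and 57 in Ly6c2, so it counts as higher in Het through Het 139 alone. Il18rap, an interleukin 18 receptor chain of memory and NK cells, had the largest difference of that list, at 273 ± 70.1 in Het and 139 ± 51.5 in WT (SD, n = 4 each, limma adjusted p = 0.250).

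B cell markers were higher in Het in 7 of 7 genes, with sums of 2842.3 to 14771.8 in Het and 2221.8 to 6103.3 in WT libraries, myeloid markers in 9 of 10, with sums of 1734.4 to 6140.8 and 1988.6 to 4257.7 in Het and WT, and platelet markers in 5 of 5 tested, with sums of 221 to 769.8 and 245.3 to 366.4. No gene of the NK, memory, B cell, myeloid or platelet lists passed limma's test, and 52% of all tested genes were higher in Het. Cd4 was at 484.0 to 1078.3 in Het and 406.2 to 853.6 in WT libraries. In a bulk sample, a different share of cells of a type and a different amount of RNA per cell cannot be told apart. Stroma markers went the other way: all 4 were lower in Het, with sums of 134.2 to 609.3 in Het and 706.0 to 3261.3 in WT libraries, and Dcn, at 9.1 to 54.1 in Het and 285.0 to 685.1 in WT, passed limma's test (adjusted p = 0.00536). Neutrophil, CD4 and regulatory T cell lists were split evenly, and 3 of 4 tested gamma delta and innate T cell markers were higher in Het, with sums of 261.5 to 931.3 in Het and 153.6 to 418.1 in WT. Apart from the fit with the NK marker level given next, the part of NK, stroma, memory, B cell, myeloid and platelet RNA in the differences was not tested.

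With the NK marker level of each library as a covariate, the log2 difference was -0.017 for Ccl5 (95% interval -0.70 to 0.67), 0.18 for Ifng (-0.78 to 1.14), 0.11 for Fasl (-0.71 to 0.93) and 0.51 for Xcl1 (-0.35 to 1.38). Without the covariate these differences were 0.71, 1.04, 0.92 and 0.92. Ccl3 and Ccl4 turned to -0.74 (95% interval -1.41 to -0.07) and -0.77 (-2.19 to 0.65). No gene of the group passed (limma, adjusted p 0.829 for Ccl3 and 0.997 for the others), and Tnf, Ltb and Tgfb1 stayed between -0.06 and 0.05. The covariate was the mean log2 level of the 7 NK genes, itself 6.10 in Het and 5.19 in WT. Klra8 of that list was at 8.7 to 50.8 in Het and 0.2 to 27.4 in WT libraries. The levels of the other marker lists were not fitted, so the NK list cannot be told apart from them here.

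**Figure D3:**
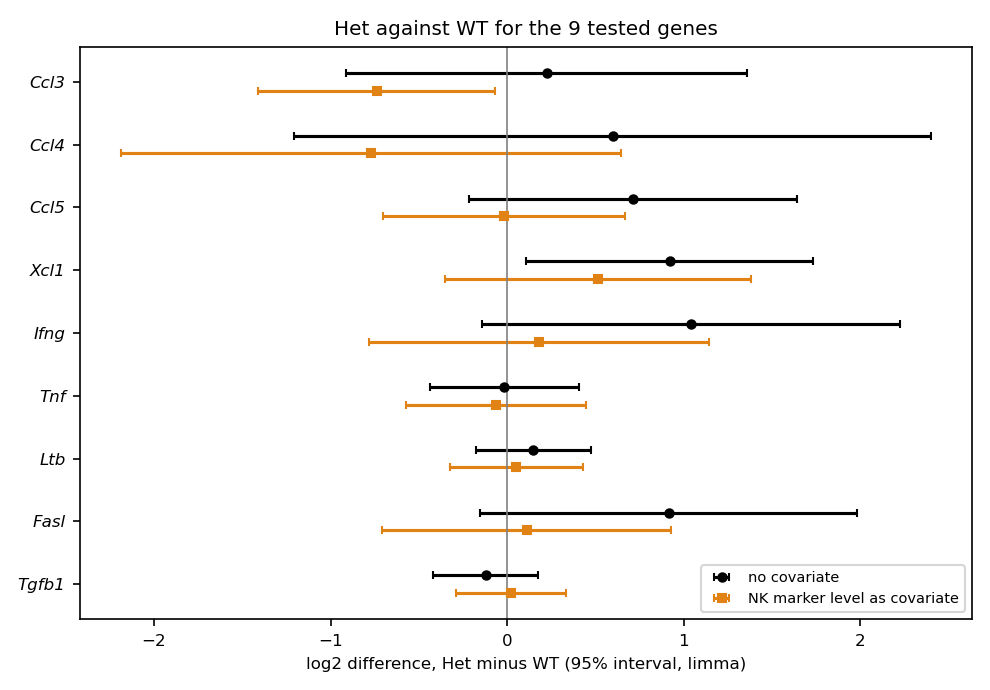
Log2 difference, Het minus WT, of the 9 tested genes with its 95% interval by limma, without a covariate (black circles) and with the NK marker level of each library as a covariate (orange squares). Ccl3, Ccl4, Ccl5, Xcl1, Ifng and Fasl lie further left with the covariate, for example Ifng at 0.18 beside 1.04, and Tnf, Ltb and Tgfb1 move little.

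Single libraries carried much of the differences. Without Het 56 the log2 difference of Ccl5 was 1.19, with the lowest adjusted p of any gene of the group under any alternative (limma adjusted p = 0.0721), and without Het 31 it was 0.38. Ifng ranged from 0.74 without Het 31 to 1.45 without Het 56, and Fasl from 0.68 without WT 57 to 1.29 without Het 56. Xcl1 stayed between 0.61 without WT 45 and 1.11 without WT 57. Ccl4 ranged from 0.20 without Het 31 to 1.31 without Het 56, and Ccl3 from -0.17 without WT 45 to 0.68 without WT 65.

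**Figure D4:**
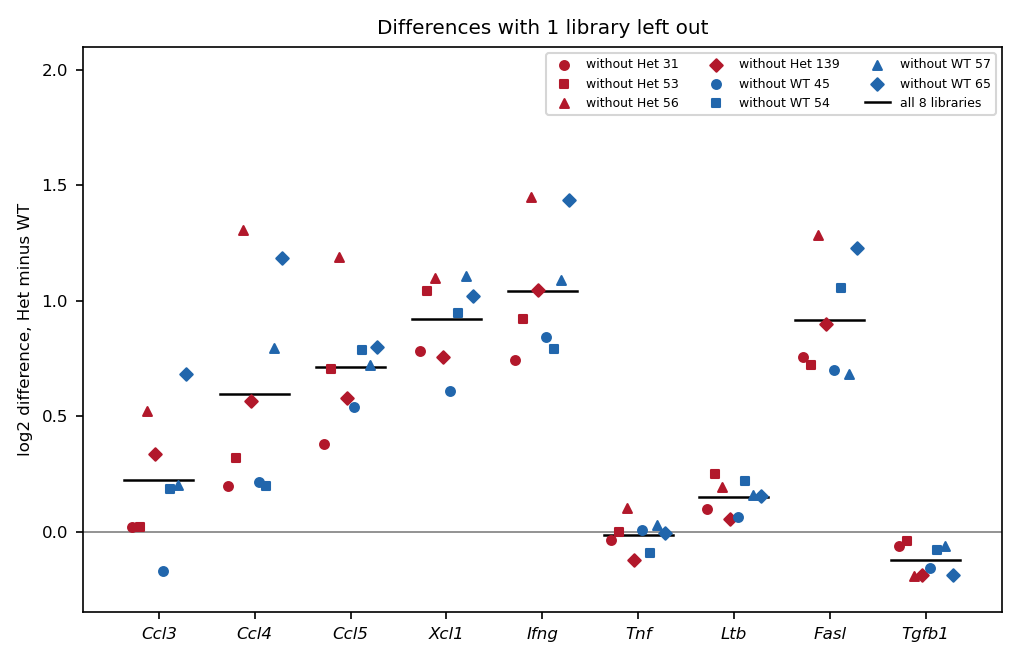
Log2 difference, Het minus WT, of the 9 tested genes when each library in turn is left out (red: a Het library left out; blue: a WT library left out), beside the value with all 8 libraries (black line). Ccl4, Ccl5, Xcl1, Ifng, Ltb and Fasl stay above 0 whichever library is left out, and Tgfb1 stays below 0. Ccl3 and Tnf lie on both sides of 0.

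The genes whose profile over the 8 libraries lay nearest to that of Ccl5, among 10224 genes with a mean of at least 50, were Bank1, Gzmb, Rnase6, Cybb and Fgl2, with mean absolute differences of 0.186 to 0.221 in centred log2 value. Gzmb encodes a protease of cytotoxic granules, Bank1 a B cell scaffold and Cybb a subunit of the phagocyte oxidase. Gzmb was at 611.3, 397.0, 216.1 and 502.0 in Het 31, 53, 56 and 139, and at 113.6, 259.3, 228.8 and 296.3 in WT 45, 54, 57 and 65. Bank1 was at 1267.4, 611.1, 247.9 and 488.6 in the same Het libraries, and at 331.9, 454.0, 371.0 and 424.2 in the WT libraries. Within the group, Xcl1 was the nearest to Ccl5, at rank 214.

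Receptors of these ligands did not pass limma's test, 7 of the 14 tested being higher and 7 lower in Het, the median log2 difference being -0.03. Tnfrsf1b, the TNF receptor prominent on lymphocytes, had the smallest p of the list, at 3805.4, 3282.8, 3130.3 and 3536.7 in Het 31, 53, 56 and 139, and at 2715.7, 2758.6, 2874.5 and 2996.6 in WT 45, 54, 57 and 65. Every Het library was above every WT library, with a log2 difference of 0.28 (SE 0.09, limma adjusted p = 0.370). Of all tested genes, 2.13% were without overlap in this direction, and Tnfrsf1b was named for its small p. Xcr1, the receptor for XCL1, was at 1.9 to 40.6 in Het and 0.4 to 7.1 in WT libraries (log2 difference 1.87, limma adjusted p = 0.646).

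Among other T cell cytokines, 11 of 22 reached the filter, 7 of them higher and 4 lower in Het (median 0.09), and none passed limma's test. Il3, Il22 and Ccl1 were listed at 0 in all libraries. Tnfsf10, the death ligand TRAIL, was at 1365 ± 96.2 in Het and 1159 ± 86.6 in WT (SD, n = 4 each). Its genotypes did not overlap, as in 5.0% of all tested genes (log2 difference 0.24, limma adjusted p = 0.575). Cd40lg, the ligand by which helper T cells signal to B cells, was at 151.8, 169.6, 52.8 and 117.3 in Het 31, 53, 56 and 139, and at 27.2, 34.6, 28.2 and 157.9 in WT 45, 54, 57 and 65. WT 65, also the highest WT library for Ccl3, Ccl4, Ifng and Fasl, stood apart in Cd40lg (log2 difference 1.29, SE 0.57, limma adjusted p = 0.601).

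Interferon gamma target genes were higher in Het in 10 of 10, with a median log2 difference of 0.27, and no member passed limma's test. Of all tested genes, 52% were higher in Het. The mean log2 level of the list overlapped, at 10.39 to 10.94 in Het and 9.9 to 10.42 in WT libraries. Igtp and Irgm1, GTPases of defence against intracellular microbes, were at 8128 ± 508 and 5421 ± 844 in Het and at 6808 ± 825 and 4438 ± 481 in WT (SD, n = 4 each), with log2 differences of 0.26 and 0.28 (limma adjusted p = 0.542 and 0.60). Ciita, the master regulator of class II antigen presentation and abundant in B cells, was at 516 ± 240 in Het and 308 ± 93.0 in WT (log2 difference 0.70, limma adjusted p = 0.601). Many of these genes also answer to type I interferon.

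Targets of the other ligands were split in direction. The TNF and NF-kappaB list was higher in 3 and lower in 7 of 10 genes (median -0.07), the TGF-beta target list higher in 2 and lower in 5 of 7 (median -0.06), and the interleukin 2 target list higher in 3 and lower in 2 of 5 (median 0.04). Birc3, an inhibitor of apoptosis that NF-kappaB induces, was at 2486 ± 254 in Het and 2158 ± 67.8 in WT (SD, n = 4 each). Its genotypes did not overlap, as in 5.0% of all tested genes (log2 difference 0.20, limma adjusted p = 0.609). Ski, which represses TGF-beta signalling, was at 7716 ± 914 in Het and 8685 ± 528 in WT (log2 difference -0.18, limma adjusted p = 0.660). Genes that process or activate TGF-beta were lower in Het for 6 of the 7 tested, with a median log2 difference of -0.20. Over all tested genes, 52% were higher in Het. Among the 6 was Furin, the protease that cleaves the precursor, at 2834 ± 189 in Het and 3117 ± 240 in WT (log2 difference -0.14, limma adjusted p = 0.694).

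Regulators of cytokine genes did not pass either. The transcription factor list was higher in 5 and lower in 6 of 11 genes (median -0.01). Prdm1, the factor Blimp-1 of effector cells, was at 163.9, 147.5, 108.8 and 162.8 in Het 31, 53, 56 and 139, and at 99.5, 110.7, 96.8 and 103.9 in WT 45, 54, 57 and 65. Only WT 54 was above a Het library, Het 56 (log2 difference 0.48, SE 0.21, limma adjusted p = 0.587). Runx3, a CD8 lineage factor, was at 4902 ± 1717 in Het and 6415 ± 1129 in WT (SD, n = 4 each, log2 difference -0.43, limma adjusted p = 0.646). The factors that destroy cytokine messages were lower in Het in 6 of 6, with a median log2 difference of -0.11, where 52% of all tested genes were higher. The mean log2 level of this list overlapped between genotypes, at 12.37 to 12.72 in Het and 12.48 to 12.86 in WT libraries. Zfp36, tristetraprolin, which binds the messages of Tnf and Ifng and speeds their decay, was at 11325.3, 8621.1, 10328.9 and 11037.3 in Het 31, 53, 56 and 139, and at 12151.4, 12351.3, 12701.2 and 11993.8 in WT 45, 54, 57 and 65. The Het libraries all lay below the WT libraries, a log2 difference of -0.26 (SE 0.10, limma adjusted p = 0.517). Of all tested genes, 5.0% had no overlap, both directions counted. Altogether 0 of the 81 tested genes of these 9 lists passed limma's test and 9 had an unadjusted p under 0.05, beside 8.19% of all tested genes.

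**Figure D5:**
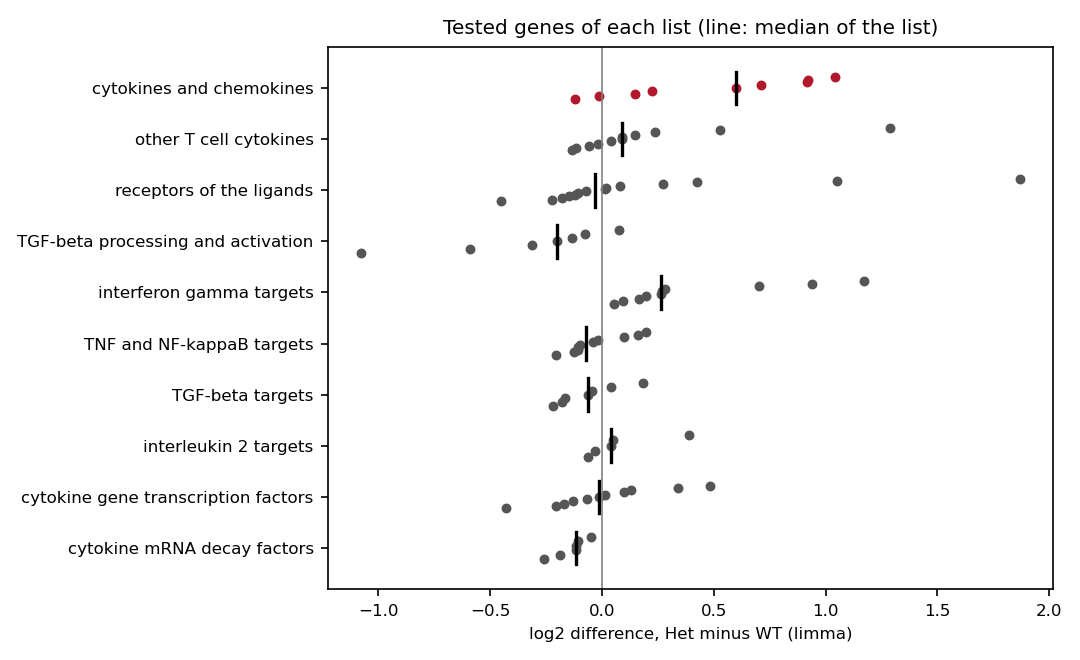
Log2 difference, Het minus WT, of each tested gene of the cytokine and chemokine group (red) and of the 9 related lists (grey), with the median of each list as a black line. The group's median is 0.60; the medians of the other lists lie between -0.20 for TGF-beta processing and 0.27 for interferon gamma targets, and no gene shown passed the test.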

How the data were processed

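RNA was sequenced from 8 naive CD8 T cell libraries, 4 Het and 4 WT. Per the submitters' processing notes, the build was mm9 and the tools were TopHat2, HTSeq, CASAVA and DESeq, with no versions or roles. What the authors deposited is a linear signal for every gene, normalized read counts. Above a level of 100, the libraries share a single distribution, while low values differ between them, so total RNA cannot be compared, and no count model was used. An estimated read stood for less at low values in WT libraries, as given for Ifng, so low genes are not on 1 scale in the genotypes. The effect of this on Het minus WT of low genes was not tested. Stranded polyadenylated RNA libraries were made, per the labels' protocols; the strand setting of the counting is not given in the sources used here.

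Values were tested on log2(value + 1) by limma (version 3.58.1, R 4.3.3, trended variance, 2-sided) for the 12048 genes with a mean of at least 10; this scale understates differences of low genes. Adjusted p-values are Benjamini-Hochberg values over all tested genes. Exact permutation tests used all 70 assignments of libraries (2-sided, smallest possible p 0.0286). The test was checked on simulated data with independent noise in each gene. That simulation held no shifts shared by many genes of a library, so it does not cover them. The 10 genes, the lists and the alternatives were chosen with earlier results of these data known. Named beside the 10 genes were up to 3 genes of each related list with the smallest unadjusted p, defining markers, and the 5 genes nearest to Ccl5; not all are described. A mean log2 level of a list covers all its members found. Lrrc33, Folr4 and Emr1 stand in the table for Nrros, Izumo1r and Adgre1. Exonic lengths and overlapping genes came from GENCODE M21 and windows from RefSeq (both GRCm38), used for names, lengths and sequence only. Settings varied in turn were a pseudocount of 0.5 or 5, a minimum mean of 50 or only a value above 0, TMM factors, quantile normalization of log2 values, no trend, a robust fit, array weights, the NK marker level as a covariate, and each library left out. PCR copies were not marked, so the estimates of reads cover counting error only.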

Additional observations from a re-analysis of the deposited data

Results flagged for a closer look

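A library was set apart when its gap to the nearest of the other 3 of its genotype made up nearly the whole range of that genotype, on the log2(value + 1) scale. This held for 7 of 124 groups screened (5.65%), and chance gives about 1 in 20.

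Il2 was at 2.1 in Het 53 and at 0.3 in WT 57, and listed at 0 in each of the other libraries. With the rest of a genotype at 0 the gap is the whole range, so the chance rate does not apply to Il2. Cd40lg was at 157.9 in WT 65, against 27.2 to 34.6 in the other WT libraries. Osm, a cytokine of the interleukin 6 family, was at 436.3 in Het 53, below the 574.0 to 581.2 of the remaining Het libraries. Igtp was at 7371.8 in Het 53, with the rest of the Het libraries at 8322.8 to 8462.3. WT 45 had the lowest WT mean log2 level of the ligands' receptors, 8.47 (others 8.98 to 9.08), and of the memory CD8 markers, 9.39 (others 9.70 to 9.76).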

How the results depend on the processing

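No gene of the group and no gene of the related lists passed limma's adjusted threshold under any of the 18 alternatives run, and 0 of the 10 genes had an exact permutation p under 0.05 with either pseudocount, TMM factors or quantile normalization. With 1 library left out the exact test cannot go below 0.0571, and it was not rerun there. No paired analysis was possible because the genotypes share no replicate number. Of 162 values of the tested genes under alternatives, 154 kept their direction. This count includes settings that cannot change a log2 difference, namely the other minimum means, no trend and the robust fit. Ccl3, for example, was at 0.224 in each of these, as in the main fit. With the NK marker level as a covariate the differences were -0.74 for Ccl3, -0.77 for Ccl4, -0.017 for Ccl5 and 0.021 for Tgfb1, and, among list genes, -0.18 for Socs2, 0.11 for Myc, -0.093 for Bcl2 and 0.071 for Zfp36l1, each of the opposite sign to the value without it. With 1 library left out, Ccl3 ranged from -0.17 to 0.68, Tnf from -0.12 to 0.10, Socs2 from -0.013 to 0.99, Myc from -0.21 to 0.035 and Bcl2 from -0.058 to 0.17. The 62 genes called over the whole table numbered 123 with any value above 0, 14 with a mean of at least 50 and 9 with the NK covariate, and 11 to 91 with 1 library left out (27 without Het 31, 21 without Het 53, 30 without Het 139, 16 without WT 54 or WT 65, 11 without WT 57). Genes higher in Het numbered 9 with any value above 0, 10 with no trend, 1 with array weights or without WT 65, and 3 without Het 56. The cause was not tested. Depth limits Il2 and the low values of Ccl4, Ifng and Fasl.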

Other observations

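Cytokines of helper T cells under the filter were mostly at or near 0. Il21, a cytokine of follicular helper T cells, was chosen after its values had been seen. It was at 14.6, 10.4, 9.9 and 0 in Het 31, 53, 56 and 139, and at 0, 0, 0.7 and 1.0 in WT 45, 54, 57 and 65. The estimated reads were 20, 11 and 8 in Het 31, 53 and 56, and at most 3 in each WT library. Il10, which dampens immune responses, was at 12, 6.8, 0 and 1.9 in the same Het libraries, and at 0.8, 0.7, 2.9 and 0.2 in the WT libraries. Its estimated reads were 16, 7, 0 and 1 in these Het and 3, 3, 6 and 1 in these WT libraries. Il17a was at 4.1 and 6.8 in Het 31 and Het 53 and listed at 0 in the other 2 Het libraries, and at 1.0 or less in each WT library. The estimated reads of Il17a were 5 in Het 31 and 7 in Het 53, beside 4 in WT 54 and 1 in WT 65. The lowest value above 0 was 0.9 to 1.9 in Het and 0.2 to 0.3 in WT libraries. Values this low are therefore not on 1 scale in the 2 genotypes.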
